A study of Mus musculus with 8 samples.

Results

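The baseline transcriptome of wild-type (WT) mouse embryonic fibroblasts (MEFs) was described from the 4 WT lines among the 8 lines sequenced. The members were chosen by their column label alone, and the other 4 lines, which lack SLMAP3, were not used. Each WT line came from an E14.5 embryo of the B6C3F1 strain, from the body that remained after head and organs were taken away, and each line from a different embryo. They were grown in high-glucose DMEM with 10% FBS. The cells carried SV40 large T antigen, transfected after passage 2, and were split at a 1/10 ratio at least 5 times or until senescence was no longer seen, so what follows describes immortalised lines under serum and not primary fibroblasts. No treatment was applied beyond this. Each line gave 1 library, and nothing in the labels says that the libraries of a line were repeated, so errors below are the SD between 4 lines and hold both biological and technical spread.

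Fibroblasts are the mesenchymal cells that make and remodel connective tissue. They secrete fibrillar collagens, fibronectin and matricellular proteins, carry an intermediate filament network of vimentin, and pull on their matrix through actin stress fibres. A culture started from a whole embryonic body mixes fibroblasts of several origins, and the viral T antigen removes the brakes that p53 and RB set on the cell cycle, so that cells of a line descend from those that kept dividing.

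The question here is which genes these lines express, at what level, and where the lines differ. Values are given on 2 scales. CPM are counts per 1000000 counts after TMM scaling of each library and are used to compare lines for 1 gene. The length-corrected level divides counts by transcript length and is scaled to a sum of 1000000 in every line, and it is used to compare genes. Strings of 4 values follow the order WT1, WT2, WT3, WT4. The range of a gene is the log2 CPM of its highest line minus that of its lowest.

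The libraries held 63322486, 54981277, 49879059 and 57769657 estimated counts, so 1 CPM stood for 51.1 to 61.2 counts and a count of 0 allowed a level of up to 3 counts, or 0.0490 to 0.0588 CPM. These limits cover counting error only. Of 55401 listed genes, 11897 (21.5%) had at least 1 CPM in every line. Protein-coding genes took 97.5% to 97.7% of the counts of each line, mitochondrially encoded genes 1.30% to 1.69% without the counts given to the chromosome 1 copies described below, and the 10 genes with most counts 4.77% to 5.92%. The lines differed in sex: WT3 expressed Y-linked genes and lacked Xist, and the other 3 lines expressed Xist and had at most 1 count of each Y-linked gene listed, as described further down.

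The label of the cells was first held against 5 fibroblast markers. All 5 were among the abundant genes of every line, and none had a 2-fold range, which 21.4% of the 12794 genes with a mean of at least 1 CPM had. Col1a1, the alpha 1 chain of type I collagen (chr11:94936224-94953042, plus strand in GRCm38), stood at length-corrected levels of 2267, 2798, 2612 and 2899. Its partner Col1a2 (chr6:4504814-4541544, plus strand) stood at 1429, 1485, 1426 and 1703, and the mean of Col1a1 was 1.75 times that of Col1a2, while the type I collagen trimer holds more alpha 1 than alpha 2 chains. Fn1, fibronectin (chr1:71585520-71653200, minus strand), had levels of 2159.8, 2147, 2098 and 2885. The values of Vim, the intermediate filament protein vimentin (chr2:13573927-13582826, plus strand), were 2603, 3605, 3178 and 3384, and those of Sparc, a collagen-binding matricellular protein (chr11:55394500-55423183, minus strand), were 1907, 1903, 2165 and 2296. On this scale WT1 had the lowest Vim and Col1a1 of the 4 lines and WT4 the highest Col1a1, Fn1 and Sparc, with ranges in CPM of only 0.16 for Sparc to 0.53 for Fn1 on the log2 scale.

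Across genes, the highest length-corrected levels of coding genes belonged to mitochondrial respiration, translation, the actin cytoskeleton and the matrix. mt-Co1, a mitochondrially encoded subunit of cytochrome c oxidase, had the highest mean of the coding genes as counted, at 9603 ± 1149.7 (SD, n = 4), followed by Eef1a1, the elongation factor that brings aminoacyl-tRNA to the ribosome, at 9327 ± 1346. The difference between them was smaller than either SD. mt-Atp8, a subunit of ATP synthase, followed with 7733 ± 947. Then came a step down to Lgals1, the galactose-binding protein galectin-1, at 5066 ± 355, with mt-Nd1, the ferritin light chain gene Ftl1, mt-Cytb and the 2 cytoplasmic actins at 5007, 4945, 4783, 4757 and 4599. From Lgals1 to Actg1 neighbours in this order lay within their SD of each other.

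Actb and Actg1 encode beta and gamma cytoplasmic actin, and their levels were nearly equal, with a ratio of 1.03 between the means. Thbs1, the secreted matricellular protein thrombospondin-1, was the first matrix gene in the order with a mean of 3316 ± 1209.7, and, relative to its mean, it had the widest spread of the 20, at 2409, 5026, 2513 and 3316. WT2 stood above the other lines there. Ppia, the proline isomerase cyclophilin A, was the steadiest of the 20 on this scale, with levels of 3269, 3296, 3294 and 3219.7. Vim was the 16th of the 20. The 20 genes together made up 8.94% to 9.35% of the summed level of a line.

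**Figure D1:**
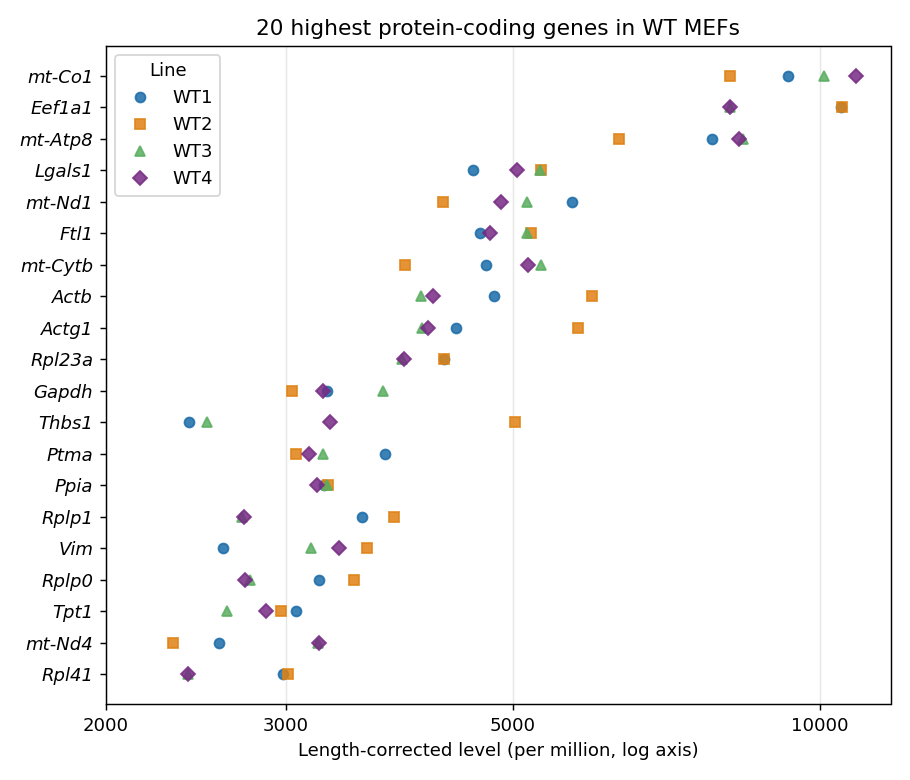
Length-corrected level (x axis, log axis) of the 20 protein-coding genes with the highest mean, with 1 point for each of the 4 WT lines. mt-Co1 and Eef1a1 have the highest means, 9603 and 9327, and Thbs1 has the widest spread relative to its mean, from 2409 in WT1 to 5026 in WT2.

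Among the 50 genes with the highest levels of any type, 45 were protein coding, 16 encoded ribosomal proteins, 6 were mitochondrially encoded and 4 were pseudogenes. Of the pseudogenes, 3 sit on chromosome 1 and repeat mitochondrial genes. Gm10925, Gm28661 and Gm28437 had mean levels of 11787 ± 1278, 8608 ± 1132 and 6667 ± 464, as high as the genes at the head of the coding list, and all of their 31-base words are shared with mt-Atp6, mt-Co2 and mt-Co3. The mitochondrial partners held fewer counts. mt-Co2, a core subunit of cytochrome c oxidase, had only 33.8, 9.01, 28.0 and 40.1 CPM against 2356, 2067, 2325 and 2462 CPM for Gm28661. Reads within the shared words cannot be told apart by their sequence, so the level of mt-Co2, mt-Co3 and mt-Atp6 is known only as the sum with the copy. Gm10925 alone stood above mt-Co1 on the length-corrected scale, so the head of the coding order depends on how the reads of mt-Atp6 were split. That sum was 2389, 2076, 2353 and 2502 CPM for mt-Co2 with Gm28661.

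Collagens are the main structural product of fibroblasts. Of 20 collagen genes, 18 had at least 1 CPM in every line, against 21.5% of all listed genes. Behind the type I chains, the highest length-corrected levels were those of Col5a2, a chain of the collagen that sets fibril diameter, with 1146, 1462, 962 and 1139, and Col12a1, a fibril-associated collagen, with 570.4, 1087, 943 and 1093. Col6a1 and Col5a1 followed at 507 ± 128 and 405 ± 82.8. Col3a1, the partner of type I collagen in soft tissue fibrils, reached only 103, 115, 204 and 205, with WT3 and WT4 above WT1 and WT2. WT4 was the highest line for 10 of the 20 genes and WT1 the lowest for 12, against 20.4% and 29.3% of all 12794 genes with a mean of at least 1 CPM.

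The enzymes that shape this collagen were present as well. Serpinh1, the collagen chaperone HSP47, had levels of 1657, 1584, 1556 and 1569.8, and P4hb, a subunit of prolyl 4-hydroxylase, of 992, 1130.2, 1165 and 1064. Lox, which crosslinks collagen and elastin, varied more, at 873, 1419, 495 and 769, and was highest in WT2. The membrane-bound collagenase gene Mmp14 stood at 413, 307, 517 and 433, whereas secreted collagenase and stromelysin genes were low, with a mean of 0.823 CPM for Mmp13 and 2.66 CPM for Mmp3. Of the tissue inhibitors of these enzymes, Timp2 was the highest at 633, 805, 892 and 721.

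Among matrix glycoproteins and proteoglycans, Bgn, the small proteoglycan biglycan, had a mean level between those of Col1a1 and Col1a2, at 1482, 2546, 2518 and 3108, and was lowest in WT1. Fbln2, an elastic fibre and basement membrane glycoprotein, had 1107, 1111, 597 and 726. The proteoglycans that mark quiescent fibroblasts of adult connective tissue were low. Dcn, decorin, had 0.327, 2.02, 14.53 and 3.75 CPM and Lum, lumican, 0.114, 3.19, 18.2 and 2.45 CPM, both with their highest value in WT3 and under 1 CPM in WT1.

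Of the 26 genes listed for fibroblast identity, 22 had at least 1 CPM in every line. The exceptions were Dcn and Lum, Fap, the fibroblast activation protease, with a mean of 0.145 CPM, and Tcf21, a transcription factor of visceral and adventitial fibroblasts, with 0 counts in each library. The receptors were present. Pdgfrb, the beta receptor for platelet-derived growth factor, had 245, 406, 371 and 439.8 CPM, while Pdgfra, the alpha receptor, had 17.6, 97.2, 145 and 153 CPM, so WT1 was low in Pdgfra and not in Pdgfrb to the same degree. Thy1, a surface glycoprotein used to sort fibroblasts, had 126, 26.5, 95.3 and 191 CPM and was lowest in WT2. The mesenchymal transcription factors Twist1 and Prrx1, both regulators of limb and craniofacial mesenchyme, were expressed in every line with 77.0, 87.3, 114 and 102 CPM and 451, 585, 657 and 960.4 CPM.

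Contractile genes were expressed at levels close to those of the collagens. Acta2, smooth muscle alpha-actin and the usual marker of myofibroblasts, had length-corrected levels of 1321, 3589.8, 2280.3 and 2302. Tagln, the actin-binding protein transgelin, had 1346, 1960.2, 886 and 928, and Tpm1, a tropomyosin that decorates stress fibres, 1727, 2116, 1383 and 1321. WT2 was the highest line in each of these. Of the 15 smooth muscle and pericyte genes listed, 11 had a mean of at least 1 CPM, and 10 had that level in every line. Cnn1, Lmod1, Rgs5, Cspg4 and Mcam were among the 11. The members with a lower mean were either low but counted or near 0. Myh11, smooth muscle myosin, had 0.229, 0.842, 1.57 and 1.19 CPM, Des, desmin, 0.311, 0.274, 0.371 and 0.420 CPM, and Kcnj8 and Abcc9, which form the potassium channel of pericytes, had at most 1 count in any library. Of 15 genes on that list, WT2 was highest for 9 of the 11 with a mean of at least 1 CPM, against 25.1% of all tested genes. The summed level of the list was 5386, 9707, 6088 and 6031.

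The wider cytoskeletal list was expressed throughout. All 26 genes had at least 1 CPM in every line and only 2 had a 2-fold range. WT2 was the highest line for 21 of them with TMM scaling, for 21 with DESeq2 size factors and for 20 with total counts, against 25.1% of all genes. Flna, which crosslinks actin filaments, had 3014, 3795, 2488 and 2622 CPM, and Vcl, the focal adhesion protein vinculin, 837, 1263, 773 and 736 CPM.

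Markers of other lineages were then examined in 15 lists to see what else the cultures held. In bulk RNA, a low number of expressing cells and a low level in each cell cannot be told apart. Leaving out smooth muscle, the other 14 lists held 156 genes, of which 113 had a mean under 1 CPM, 72 had under 0.1 CPM in every line, 18 had at least 10 CPM and 3 at least 100 CPM. In the kidney and urogenital list, 2 of 10 genes had at least 1 CPM in every line. The summed CPM of that list was 32.9, 51.4, 64.3 and 74.2. In the pluripotency and germ line list, 1 of 10 genes had a mean of at least 1 CPM, with a range of 5.19, and was under 1 CPM in at least 1 line.

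Few markers of blood cells, liver and epidermis were detected. Of 15 haematopoietic genes only Cd68, a lysosomal protein of macrophages that other cells also make, passed 1 CPM in every line with 2.75, 2.59, 1.87 and 2.79 CPM. Ptprc, the pan-leukocyte surface protein CD45, had 0, 1, 2 and 2 counts, and the globin gene Hbb-bs 0 in every library. None of the 10 liver genes passed, and Hnf4a, the master regulator of hepatocytes, and Ttr, transthyretin, had 0 counts. Krt5, the keratin of basal epidermis, had 0 counts, and Krt14, its partner, 2, 1, 0 and 1, but 3 of the 11 keratinocyte genes had a mean of at least 1 CPM. These were Krt10, a keratin of differentiating epidermis, with 1.96, 2.25, 2.11 and 2.57 CPM, Trp63, the p53 family factor of basal epithelia, with 1.05, 2.86, 4.15 and 7.01 CPM, and Sfn, the stratifin 14-3-3 protein, with 3.91, 7.80, 0.908 and 1.33 CPM.

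Endothelial genes split. Pecam1 and Cdh5, the junction proteins that define endothelium, had means of 0.0961 and 0.0273 CPM and Cldn5 0 counts, while Erg, an ETS factor also expressed in cartilage and mesenchyme, had 5.48, 30.9, 17.7 and 28.1 CPM and the receptor genes Flt1 and Kdr 8.89, 22.6, 28.2 and 11.96 CPM and 7.98, 22.9, 10.3 and 13.3 CPM. The 4 of 12 endothelial genes with a mean of at least 1 CPM, the fourth being Tek, were lowest in WT1, as were 29.3% of all tested genes and 555 of the 954 with a 4-fold range. Of the 14 epithelial genes, 5 had a mean of at least 1 CPM, each with a 2-fold range, and 3 had that level in every line. Krt19, a simple-epithelium keratin and 1 of these, had 26.4, 10.2, 7.86 and 14.1 CPM. Epcam and Cdh1, which define epithelium, had means of 0.593 and 0.538 CPM. For the nervous system, Map2, a microtubule-associated protein of dendrites, stood out with 73.9, 255, 141 and 100.2 CPM, and Stmn2, a tubulin-binding protein of growing axons, had 33.9, 29.4, 16.4 and 29.4 CPM, but Snap25, a synaptic vesicle fusion protein, and Olig2 and Neurod1, lineage factors, had at most 2 counts in any library. The remaining neural genes with a mean of at least 1 CPM were Tubb3, a neuronal beta-tubulin, Sox2, a neural progenitor factor, and Rbfox3, the splicing factor NeuN, with 17.2, 9.01, 12.5 and 15.9 CPM, 9.63, 14.3, 3.34 and 7.54 CPM and 1.16, 2.25, 1.57 and 2.40 CPM. Sox10, the neural crest and Schwann cell factor, had 0, 0, 3 and 2 counts, while 3 of the 12 genes of its list passed a mean of 1 CPM, with 12.5, 13.6, 6.71 and 5.75 CPM for Mbp, myelin basic protein, 9.17, 10.3, 15.4 and 16.0 CPM for Mitf, a melanocyte factor that other cells also use, and 1.63, 1.72, 3.52 and 2.23 CPM for the receptor gene Erbb3. Of the 13 skeletal muscle genes, 2 had a mean of at least 1 CPM, both with a 2-fold range. The myogenic factor gene Myod1 had 0 counts in every library and Myog at most 1. Acta1, skeletal muscle alpha-actin, alone had at least 1 CPM in every line, with 3.50, 16.0, 8.91 and 11.3 CPM.

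**Figure D2:**
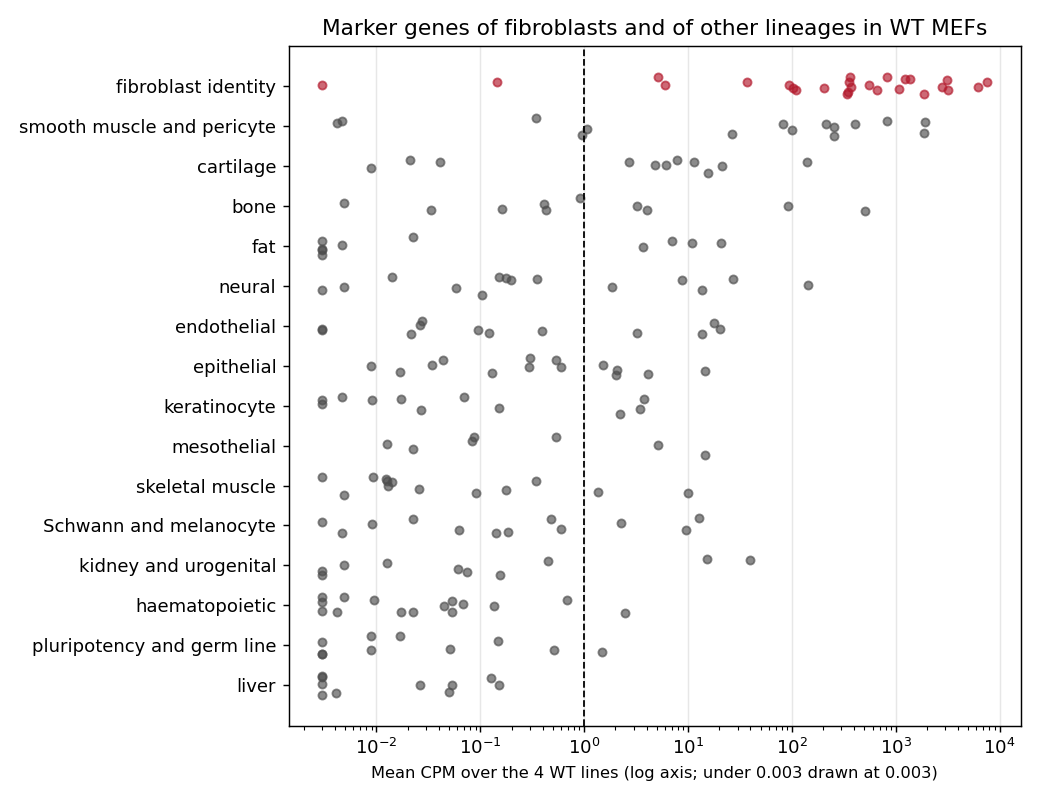
Mean CPM over the 4 WT lines (x axis, log axis, values under 0.003 drawn at 0.003) of each marker gene, with 1 row per lineage and 1 point per gene. The dashed line marks 1 CPM. Of the fibroblast identity genes (red) 24 of 26 have a mean of at least 1 CPM, while 113 of the 156 markers of the 14 lineages other than smooth muscle have a mean under 1 CPM.

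The skeletal lineages that share a mesenchymal origin with fibroblasts were partly represented. Runx2, the master regulator of osteoblasts, was expressed in every line with 89.7, 117, 69.4 and 91.6 CPM, and Spp1, the secreted phosphoprotein osteopontin, had 798, 456, 246 and 549 CPM. Of 10 bone genes 4 had a mean of at least 1 CPM, the others being Dlx5, a homeobox factor of osteoblasts, with 0.458, 4.72, 5.02 and 5.76 CPM, and Alpl, alkaline phosphatase, with 0.0981, 4.47, 2.37 and 6.05 CPM, both lowest in WT1. There was at most 1 count of Ibsp, bone sialoprotein, in any library and a mean of 0.904 CPM for Sp7, the osteoblast factor osterix. In the cartilage list, Sox9, the chondrocyte factor, had 23.9, 10.2, 14.7 and 35.7 CPM and Col11a1, a fibrillar collagen of cartilage and of other mesenchyme, 62.6, 97.4, 158 and 240.4 CPM, and 8 of the 11 genes had a mean of at least 1 CPM. Among these were Acan, the cartilage proteoglycan aggrecan, with 3.87, 13.9, 2.46 and 4.49 CPM, and Col2a1, the main cartilage collagen, with 17.7, 8.40, 11.01 and 25.2 CPM. The other 3, Col9a1, Matn1 and Cnmd, had means under 0.1 CPM. Among fat genes, the regulator Pparg had 7.86, 16.1, 5.32 and 14.9 CPM and the fatty acid carrier Fabp4 11.5, 30.3, 7.67 and 34.3 CPM, while Adipoq, adiponectin, had at most 1 count in a library and Plin1, the lipid droplet coat protein, a mean of 0.0226 CPM.

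Hox genes encode transcription factors that give cells their position along the body and limb axes, with high paralogue numbers used posteriorly and distally. In the A cluster 9 of 11 genes and in the D cluster 6 of 9 had a mean of at least 1 CPM, against 1 of 10 in B and 1 of 9 in C. Hoxd13, used in digits, external genitalia and the tail end, had the highest mean length-corrected level of the Hox genes, 222 ± 33.1, with 179, 241, 225 and 222 CPM and a range of 0.43. Hoxa10 and Hoxa11, used in the proximal and middle limb segments, had 43.2, 48.8, 64.5 and 75.1 CPM and 38.4, 32.8, 38.2 and 43.3 CPM. Hoxa13, which acts in the hand and foot plate with Hoxd13, varied more, at 13.7, 30.4, 54.0 and 48.2 CPM, and was lowest in WT1. By mean length-corrected level, Hoxa2 to Hoxa7 stood between 0.100 for Hoxa2 and 8.90 for Hoxa7, and Hoxa9 to Hoxa13 between 22.7 for Hoxa9 and 57.9 for Hoxa10. In the D cluster Hoxd8 and Hoxd9 had 4.11 and 3.30, Hoxd10 and Hoxd11 18.8 and 25.4, and Hoxd12 5.93, so the rise towards Hoxd13 was not monotonic.

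The B cluster was low, and less so in WT1 and WT3. Hoxb9, a thoracic-level gene, had 7.41, 0.764, 3.54 and 0.605 CPM, and the summed CPM of all 10 B genes was 14.7 in WT1, 1.06 in WT2, 6.65 in WT3 and 1.16 in WT4. Hoxc13, a gene of hair and tail, was the only C gene above 1 CPM on average, with 2.09, 1.04, 0.834 and 7.02 CPM. Limb identity factors of the T-box and paired classes were found together. Tbx5, which specifies the forelimb, had 0.638, 33.7, 12.1 and 26.5 CPM and was nearly absent in WT1, whereas Pitx1, which specifies the hindlimb, had 38.4, 6.58, 24.4 and 10.5 CPM and Tbx4, its hindlimb target, 16.9, 11.6, 59.4 and 24.9 CPM. WT1 had the lowest Tbx5 and the highest Pitx1.

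**Figure D3:**
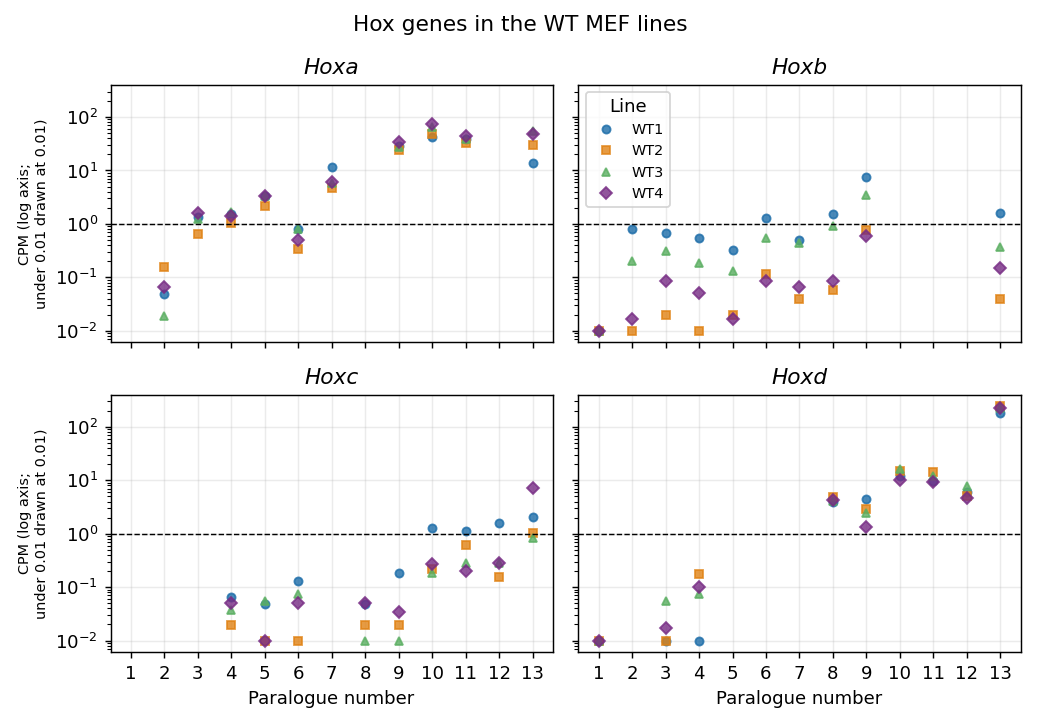
CPM (y axis, log axis, values under 0.01 drawn at 0.01) of Hox genes by paralogue number (x axis) in the 4 clusters, with 1 point for each WT line and a dashed line at 1 CPM. Hoxa9 to Hoxa13 and Hoxd10 to Hoxd13 lie above the dashed line in every line, and Hoxb and Hoxc genes lie mostly below it.

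Proliferation genes differed little between the lines. All 23 proliferation genes had at least 1 CPM in every line and none had a 2-fold range, and their median range was 0.33 against 0.50 over all 12794 genes. Mki67, the antigen of cycling cells, had 476, 526, 502 and 425 CPM, and Mcm2 and Mcm3, subunits of the replicative helicase, 299, 289.5, 292 and 291 CPM and 243, 246, 246 and 239 CPM. Ccnb1, the mitotic cyclin, had 209.6, 220.4, 176 and 155 CPM. Cdkn2a, which encodes the brakes p16 and ARF, was expressed with length-corrected levels of 932, 862, 1145 and 1076, above Cdkn1a, the p53 target p21, with 100.1, 111, 101 and 124 and Trp53 itself with 318, 292, 278 and 265. Of the 16 genes in that list only Sesn2, a stress-induced p53 target, had a 2-fold range, with 58.0, 31.6, 22.2 and 20.2 CPM.

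SLMAP3, a component of the STRIPAK phosphatase complex, is encoded by Slmap. Alternative splicing of this gene yields several isoforms, so the values below are of the gene and not of SLMAP3 alone. Slmap (chr14:26413168-26534931, minus strand) had 126, 141, 140.0 and 139 CPM in these WT lines, with a mean of 136 ± 7.14 CPM. Its length-corrected level was 63.3 ± 6.76, beside 109 ± 12.4 for the striatin scaffold gene Strn3 and 12.7 ± 1.12 for Sike1, its direct binding partner. Of 19 STRIPAK-related genes 16 were at or above 1 CPM in every line, and 2 of the 18 with a mean of at least 1 CPM, Strip2 and Stk26, had a 2-fold range, both from low levels of 0.932, 1.51, 3.71 and 3.68 CPM and 2.22, 0.901, 0.982 and 0.723 CPM.

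Differences between the lines were broad, and small for most genes. The SD of log2 CPM between lines had a median of 0.23, with 80% of the genes between 0.09 and 0.77. A range of at least 2-fold was found in 2736 genes (21.4% of 12794), and one of at least 4-fold in 954 (7.46%). The lines correlated across these genes, which are not independent of one another, with Pearson's r of log2 CPM between 0.92 for WT1 with WT3 and 0.96 for WT3 with WT4. WT3 and WT4 had the smallest median difference, 0.13 on the log2 scale, with 146 genes at least 4-fold apart, and WT1 and WT4 the most genes 4-fold apart, 576. WT3 and WT4 differ in sex. Without WT1 the counts over the other 3 lines were 1732 genes at 2-fold (13.5%) and 508 at 4-fold.

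The spread was uneven over the gene lists, which were chosen with earlier results of these data known. The share of all genes with a 2-fold range depended on the filter, at 21.4% here and 14.4% with a mean of at least 5 CPM. Among lists with at least 10 measured members, the narrowest were cholesterol synthesis, where 1 of 21 genes had a 2-fold range and the median range was 0.32, STRIPAK with 0.33 and proliferation. The largest shares of variable members were those of interferon-stimulated genes, where 22 of 25 genes had a 2-fold range, growth factors and their binding proteins with 22 of 26, chemokines and cytokines with 9 of 11 and immediate early genes with 12 of 16, against 21.4% of all genes. Without WT2 the last pair came to 3 chemokine and 5 immediate early genes, while leaving out any 1 line left 21 or 22 interferon-stimulated genes. The 10 steadiest genes among the 7842 with a mean of at least 20 CPM included Nfatc3, a transcription factor of calcineurin signalling, with 141, 143, 141 and 143 CPM, Rxrb, a retinoid X receptor, with 38.5, 38.4, 38.5 and 39.1 CPM, and Cnpy2, an endoplasmic reticulum protein, with 54.9, 54.8, 55.8 and 54.6 CPM. Hsd17b4, Ccdc88a, Fbxo42, Dync1i2, Plcb3 and Fkbp7 were also among them. Gapdh, often used as a reference gene, had 1928, 1848, 1917 and 1760.2 CPM, a range of 0.13, and Actb, the other common reference, 3805, 4908, 2823 and 3054 CPM, a range of 0.80.

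**Figure D4:**
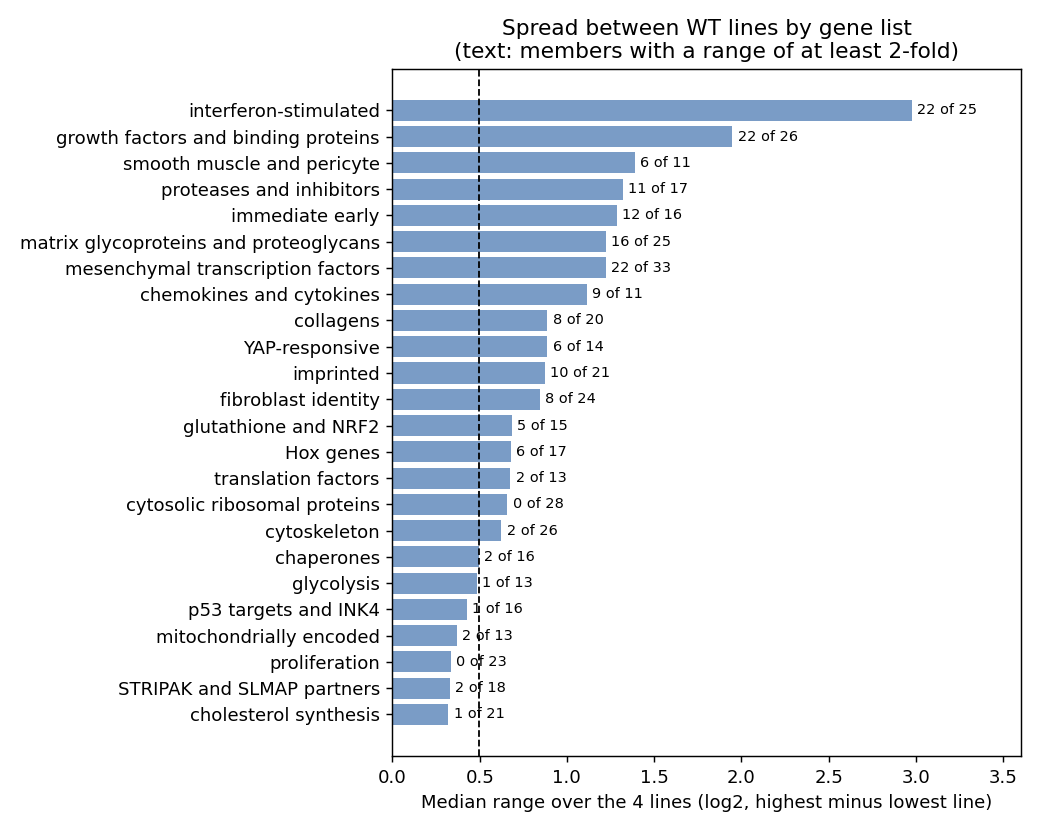
Median range over the 4 lines (x axis, log2 of the highest over the lowest line) for each gene list with at least 10 members at a mean of 1 CPM or more, with the count of members that have a 2-fold range as text. The dashed line is the median of all tested genes, 0.50. Interferon-stimulated genes lie furthest right at 2.98, and cholesterol synthesis furthest left at 0.32.

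Interferon-stimulated genes are induced when type I interferon or viral nucleic acid activates a transcription factor complex that holds STAT2 and IRF9 and binds a repeat of GAAA in their promoters. To show this sequence in genes that varied between the lines, the 200 bases before the RefSeq start (GRCm38.p6) are printed for 4 of the genes that hold it, 5′ to 3′ on the strand of the gene, with each match in capitals. A match was GAAA, any 2 bases and GAAA again on that strand, or TTTC, any 2 bases and TTTC where it lies on the opposite strand, and overlapping matches run together.
Isg15 (chr4:156200819-156201018, minus strand): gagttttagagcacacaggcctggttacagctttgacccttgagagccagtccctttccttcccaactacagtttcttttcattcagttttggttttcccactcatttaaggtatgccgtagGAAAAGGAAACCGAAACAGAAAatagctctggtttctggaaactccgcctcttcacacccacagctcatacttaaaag
Ifit1 (chr19:34640689-34640888, plus strand): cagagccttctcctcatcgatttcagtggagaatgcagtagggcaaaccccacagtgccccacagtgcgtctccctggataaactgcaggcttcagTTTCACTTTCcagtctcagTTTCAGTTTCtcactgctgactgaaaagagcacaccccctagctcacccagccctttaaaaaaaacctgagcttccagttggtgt
Ifit3 (chr19:34583329-34583528, plus strand): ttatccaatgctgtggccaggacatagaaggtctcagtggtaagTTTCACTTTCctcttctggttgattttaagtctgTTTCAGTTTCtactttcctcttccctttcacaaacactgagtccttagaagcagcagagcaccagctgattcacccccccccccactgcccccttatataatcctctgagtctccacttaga
Bst2 (chr8:71537473-71537672, minus strand): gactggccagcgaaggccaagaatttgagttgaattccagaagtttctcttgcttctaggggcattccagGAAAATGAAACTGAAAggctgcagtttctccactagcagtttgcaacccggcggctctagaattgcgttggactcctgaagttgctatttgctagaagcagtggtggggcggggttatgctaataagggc

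Isg15 held 3 overlapping matches in 1 run, and the other 3 held 2 each. Of the 25 listed genes 20 had a promoter in the table, and 8 of them held the motif in these 200 bases on either strand, against 716 of all 27025 gene symbols (2.65%). A match is a description of the sequence and does not show that a factor binds there.

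The 4 genes were low in WT1 and WT2 and high in WT3 and WT4. Isg15, a ubiquitin-like modifier, had 11.9, 23.4, 131 and 166 CPM. Ifit1 and Ifit3, which bind viral RNA, had 16.5, 21.8, 120.2 and 138 CPM and 10.1, 9.77, 60.0 and 114 CPM. For Bst2, the surface protein tetherin, the values were 30.1, 67.7, 164 and 209.6 CPM.

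The same order held for the factors and sensors upstream, and Stat2, Irf9, Irf7, Ddx58 and Ifih1 held no match in the 200 bases. Oasl2 and Ifi44, given below, held none either, nor did Irf1, Ifit2 and Cxcl10. Rsad2, an exception to the pattern in WT1, held 1 match. Whether the motif goes with the pattern was not tested. The complex members Stat2 and Irf9 had 33.4, 61.6, 210.2 and 221 CPM and 26.2, 38.1, 112 and 117 CPM, and Irf7, the factor that amplifies the response, 2.81, 5.52, 53.9 and 68.3 CPM. Ddx58 and Ifih1, the cytosolic RNA sensors RIG-I and MDA5, had 37.96, 60.2, 166 and 187 CPM and 19.7, 20.3, 42.4 and 54.7 CPM. Further effectors with wide ranges were Oasl2, an oligoadenylate synthetase-like protein, with 3.29, 7.11, 72.3 and 89.1 CPM, Usp18, the protease that removes ISG15, with 4.05, 13.1, 53.3 and 73.2 CPM, and Ifi44 with 3.71, 5.86, 64.4 and 77.2 CPM. Irf1, Ifit2 and Cxcl10 were the 3 genes of the list without a 2-fold range, at 36.9, 30.1, 46.9 and 45.2 CPM, 49.5, 61.6, 73.2 and 85.1 CPM and 26.2, 15.3, 17.3 and 30.5 CPM.

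Of the 25 genes 21 had a 4-fold range, WT1 was the lowest line for 21 and WT2 for 4, and WT4 was the highest for 23 and WT3 for 2. With total counts in place of TMM, WT4 was the highest for 21 and WT3 for 4. The summed CPM of the list was 393, 617, 1814 and 2181. Over all tested genes WT1 was the lowest line for 29.3% and WT4 the highest for 20.4%. Markers of blood cells stood near 0 in every line, with summed CPM of 3.91, 3.90, 2.63 and 3.95 over 15 genes.

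WT1 had the most genes apart from all other lines. It lay at least 4-fold below the nearest other line for 171 genes, of which 163 were protein coding, and at least 4-fold above it for 20. For WT2 these counts were 38 below and 8 above, for WT3 21 and 16, and for WT4 9 and 18. Of the 954 genes with a 4-fold range, WT1 was the lowest line for 555, WT2 for 211, WT3 for 125 and WT4 for 63.

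Several matrix genes were among those lowest in WT1. Eln, tropoelastin, had 0.114, 26.2, 18.4 and 21.9 CPM, and Hapln1, which links hyaluronan to proteoglycans, 0.0163, 22.3, 5.80 and 3.04 CPM. Thbs4, a thrombospondin of tendon and muscle connective tissue, had 8.45, 981, 496 and 411 CPM, and Tnn, tenascin-N, 3.35, 123, 380.4 and 451 CPM. Fmod, the small proteoglycan fibromodulin of tendon and cartilage, had 2.66, 79.2, 179 and 396 CPM, and was highest in WT4. In each of these 5 genes WT1 was the lowest line by over 4-fold, while the other 3 lines differed in order.

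Among regulators and secreted factors, Msx1, a homeobox gene of limb and craniofacial mesenchyme, had 1.93, 115, 63.2 and 68.7 CPM. Gpc3, a glypican that restrains embryonic growth, had 0.801, 75.2, 66.1 and 36.1 CPM, and Mest, an imprinted gene of embryonic mesoderm, 9.38, 163, 139 and 199 CPM. Penk, which encodes proenkephalin and is expressed in embryonic mesenchyme, had 7.11, 228, 309 and 269 CPM. Serpine2, the protease inhibitor nexin-1, had 9.07, 145, 167 and 212 CPM and Sfrp1, a secreted WNT antagonist, 12.6, 128, 74.3 and 67.1 CPM.

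Other genes were highest in WT1. F2rl1, the protease-activated receptor 2, had 95.7, 10.3, 6.32 and 6.12 CPM, and Kcnj15, a potassium channel, 30.4, 1.21, 1.74 and 3.41 CPM. Msln, the mesothelial surface protein mesothelin, had 17.5, 0.588, 1.02 and 1.53 CPM, and Krt19, which the mesothelial list shares with the epithelial one, was also highest in WT1. These were the members of the 7-gene list with a mean of at least 1 CPM. Upk3b and Lrrn4 were under 0.2 CPM in every line and Wt1 had counts in WT4 alone. The summed CPM of the list was 44.7, 11.4, 9.62 and 16.6. Ankrd1, a muscle and stretch-induced protein, had 32.0, 6.48, 3.65 and 3.73 CPM, and Foxd1, a forkhead factor of kidney stroma, 18.8, 2.86, 2.08 and 3.61 CPM. Col7a1, the anchoring fibril collagen, had 95.8, 21.7, 20.9 and 20.2 CPM.

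The 20 most variable coding genes with a mean of at least 5 CPM were taken without the genes of the sex-linked list and predicted genes with a Gm number. WT1 was the lowest line for 18 of these and WT4 the highest for 13, against 29.3% and 20.4% of all tested genes. As these genes were picked for their spread, the nearer comparison is with the 954 genes that had a 4-fold range. Of those, WT1 was the lowest line for 555 and WT4 the highest for 372. The other 2, Galnt2l and Erdr1, were lowest in WT3, where line and sex cannot be told apart. Among the 20 most variable genes of any kind, pseudogenes included, WT1 was the lowest line for 8 and WT3 for 8. Col14a1, a fibril-associated collagen, had 0.262, 0.783, 11.6 and 20.1 CPM, and Adamts9, a metalloprotease that cleaves versican, 0.670, 12.9, 42.4 and 41.4 CPM. Cxcl3, a neutrophil-attracting chemokine, had 0.0163, 0.0392, 2.83 and 17.7 CPM and was the most variable of the named coding genes after Galnt2l.

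**Figure D5:**
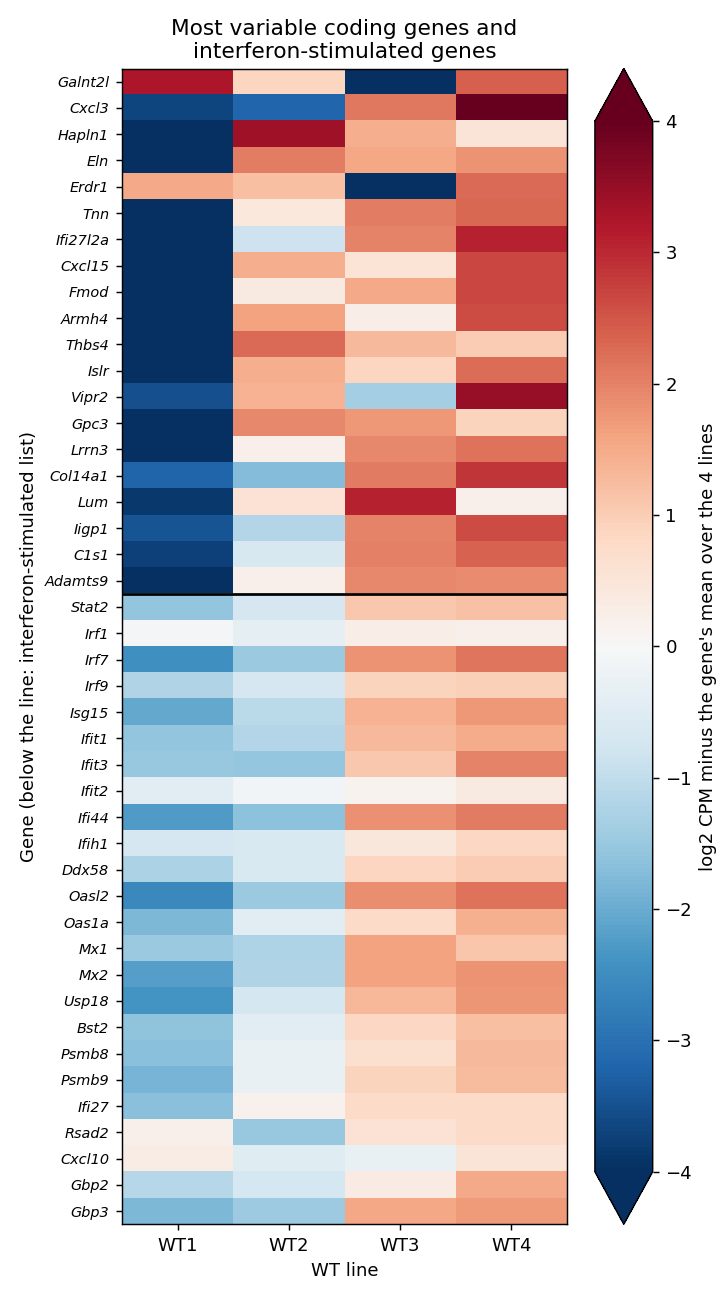
Log2 CPM minus the gene's mean over the 4 lines (colour, red above and blue below, saturated at 4) for the 20 most variable named coding genes (above the black line) and members of the interferon-stimulated list (below it), with 1 column per WT line. WT1 holds the lowest value of 18 of the upper 20 genes, against 29.3% of all tested genes and 555 of the 954 with a 4-fold range. In the lower block WT1 and WT2 are blue and WT3 and WT4 red. Ifi27 in WT2, Rsad2 in WT1 and Cxcl10 in WT1 and WT3 are the exceptions there.

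WT2 was the highest line for several secreted factors. Igfbp2, a carrier of insulin-like growth factors, had 24.6, 811, 161 and 184 CPM, and Coch, the extracellular protein cochlin, 80.7, 698, 133 and 145 CPM. Ccn2, the connective tissue growth factor, had 313, 930.4, 107 and 216 CPM. Ccn1 had 606, 1294, 359 and 459.7 CPM. Ccn1, Ccn2 and Ankrd1 are widely used readouts of the co-activator YAP, and WT2 was the highest line for 9 of the 14 genes of that list with TMM and for 8 with DESeq2 size factors or total counts, although Ankrd1 was highest in WT1. Yap1 itself had 233, 250.5, 227 and 250.4 CPM. WT2 also had the highest value of 14 of the 16 immediate early genes, which serum and stress induce within minutes. Over all tested genes WT2 was the highest line for 25.1%. Fosl1 had 54.5, 67.1, 16.7 and 19.1 CPM, Egr1 164, 271, 107 and 110.1 CPM and Myc 146, 167, 51.5 and 46.5 CPM, so that for Fosl1 and Myc WT1 lay near WT2. WT2 was the lowest line for Thy1 and for Igfbp6, an IGF2-binding protein, with 9.51, 1.12, 21.1 and 15.6 CPM.

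WT4 was the highest line for 3 of the 4 fat genes with a mean of at least 1 CPM, against 20.4% of all tested genes, and for further regulators. Lpl, lipoprotein lipase, had 0.360, 0.940, 4.78 and 22.2 CPM, Msx2, the partner of Msx1, 6.34, 15.0, 13.0 and 59.5 CPM, and Foxp2, a forkhead factor, 1.06, 10.1, 7.60 and 44.9 CPM. Prg4, the joint lubricant lubricin, had 15.8, 7.97, 47.5 and 160.1 CPM. Among growth factors, Igfbp3, the main carrier of insulin-like growth factors, had 7.45, 231, 55.1 and 340.3 CPM and Sfrp2 27.6, 207, 99.8 and 293 CPM. Tfpi, the inhibitor of the tissue factor pathway, was lowest in WT4 with 17.1, 12.3, 28.9 and 3.26 CPM. In WT3, Meox2, a homeobox gene of somite and limb muscle, was higher than in the other lines with 1.98, 5.74, 34.2 and 17.0 CPM.

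Mesenchymal transcription factors separated the lines beyond those already named. Of 33 with a mean of at least 1 CPM, 22 had a 2-fold and 11 a 4-fold range, against 21.4% and 7.46% of all tested genes, and WT1 was the lowest line for 19, against 29.3%. Without WT1, 13 had a 2-fold range. The highest mean length-corrected levels of the list were those of Prrx1, with 261 ± 95.8, its paralogue Prrx2, with 212 ± 88.9, Twist1, with 149 ± 36.3, and Tbx15, which patterns skin and limb skeleton, with 106 ± 24.1. Osr2, used in palate and joints, was highest in WT3 with 2.13, 2.47, 11.8 and 4.57 CPM, and Tbx20, better known from the heart, in WT1 with 14.4, 4.03, 1.22 and 2.15 CPM. Pax9, which acts in the axial skeleton, jaws and limbs, had 8.16, 0.705, 3.78 and 0.773 CPM.

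Ribosomal protein genes showed a shared shift of under 2-fold. Their median range was 0.66, against 0.50 over all tested genes. None of the 28 had a 2-fold range, yet each was highest in WT1 or WT2 under each of 3 scalings, and lowest in WT3 or WT4. Over all tested genes with TMM, WT1 was the highest line for 33.4% and WT2 for 25.1%, and WT3 was the lowest for 27.0% and WT4 for 22.6%. The summed CPM was 20803, 20798, 13829 and 14263 with TMM, and 20097, 19313, 14964 and 14694 with total counts. Each of 13 translation factors was also highest in WT1 or WT2 and lowest in WT3 or WT4, with 7761, 8058, 5286 and 5574 CPM for Eef1a1 and 1233, 1096, 623 and 624 CPM for Eif5a. As TMM factors were 0.97, 0.93, 1.08 and 1.03, the scaling moved these sums, and the order of WT3 and WT4 changed with it, while WT1 and WT2 stayed above both.

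Imprinted genes are expressed from the allele of 1 parent, and several belong to a network that is active in embryonic growth. Of 21 imprinted genes with a mean of at least 1 CPM, 10 had a 2-fold range, against 21.4% of all tested genes. H19, a non-coding RNA, had 153, 722, 181 and 41.3 CPM, a range of 4.13, and Igf2, the growth factor of the same locus, 17.3, 52.6, 30.1 and 17.5 CPM. Both were highest in WT2. Plagl1, a zinc finger factor of that network, was lowest in WT1 with 11.9, 61.6, 86.8 and 69.7 CPM, as was Mest. Gnas and Grb10 were steady, with 1089, 1169, 1048 and 1182 CPM and 576, 606, 439 and 482 CPM.

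The sex-linked genes split the lines by embryo. Xist, the RNA that coats the inactive X chromosome, had 926, 899.7, 0.167 and 909 CPM. The Y-linked genes Ddx3y, Kdm5d, Uty and Eif2s3y had 103, 37.6, 35.0 and 30.6 CPM in WT3 and at most 1 count in each other library. Genes annotated on chromosome Y took 0.0184% to 0.0287% of the counts of every line, so the other lines also held counts there, and it is these 4 genes that were confined to WT3. In WT3 the line and the sex cannot be told apart.

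Predicted genes and pseudogenes headed the raw ranking of variability. Of the 20 most variable genes of any kind, 12 were pseudogenes and 10 had 0 counts in at least 1 line. Gm13394 had 473, 441, 0.0371 and 191 CPM, Gm29216 43.7, 0, 172 and 232 CPM and Gm15459 764, 344, 3.08 and 2.89 CPM. Their 31-base words are shared with other transcripts to 97.5%, 97.2% and 96.9%, the partner with the largest share being the predicted gene Gm7336 for Gm13394, mt-Co1 for Gm29216 and Hspa8, the constitutive HSC70 chaperone, for Gm15459. Hspa8 itself had 2017, 2061, 1890.5 and 1967 CPM. Hmga1b shares 92.7% of its words with Hmga1, an architectural chromatin protein, and had 680.2, 429, 292 and 32.9 CPM, while the sum of both genes was 1019, 659, 428 and 140 CPM, so the low value of WT4 was also seen in the sum. Counts of such copies depend on how reads were split between near-identical sequences and are uncertain.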

How the data were processed

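Poly(A) RNA of 4 WT lines was sequenced by the authors with a stranded Illumina kit on a NextSeq 2000. The authors deposited estimated counts per gene from Salmon on GRCm38 with GENCODE M25, scaled by transcript length. The Salmon version, and whether counting used strand, are not given in the sources used here, so reads of overlapping, antisense or near-identical genes are uncertain. A further deposited table, which holds the authors' own comparison of genotypes (fold changes and p-values), was not used, nor were 4 count columns of SLMAP3−/− lines.

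The estimated counts were first made whole by rounding, then scaled within the 4 lines by TMM (edgeR 4.0.16, R 4.3.3) to CPM. Log2 CPM used a prior count of 2. Genes with a mean of at least 1 CPM entered all statements on range, and detection meant at least 1 CPM in every line. Length-corrected levels were counts divided by the longest coding transcript in GENCODE M21, an earlier annotation of the same build, and are approximate because the counts were already length-scaled. Of 55401 genes, 55141 matched it. Coordinates are those of M21 and promoters those of RefSeq (GRCm38.p6). Shared 31-base words were counted over M21 transcripts. The range and spread calculation was tested on simulated data. Totals were 49879059 to 63322486 counts.

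With 1 group and 1 library per line the lines were not tested against each other and no p-value is given. Dixon's critical value was applied only to find single lines that stood apart. The SD is over 4 lines. The members and the 39 gene lists were chosen with earlier results of these data known. Named genes were the 5 fibroblast markers, the 20 highest coding genes, up to 4 highest members and the near-absent defining markers of each list, the 20 most and 10 least variable genes, up to 5 genes per line and direction furthest from the nearest other line, and list members with a 4-fold range. The set of 20 variable coding genes with names, the genes given for their partner's sake and other named genes outside this rule were chosen after their values were seen. Alternatives were DESeq2 1.42.0 size factors, total counts, other prior counts, filters and lengths, and leaving out each line. A few genes of the lists are counted in them but not reported by name here.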

Additional observations from a re-analysis of the deposited data

Results flagged for a closer look

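Of 101 values examined, 17 had 1 line whose gap to its nearest neighbour took up more of the whole range of the 4 lines than Dixon's critical value for 4 samples allows. Chance flags about 1 in 20 values, or 5.05 of 101. Of the 17, 11 belong to the 20 most variable genes, which were picked for their spread, or to the sex-linked genes, which split by embryo. The measure is a gap over a range, so a wide spread alone does not set it.

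In WT2, the summed length-corrected level of the smooth muscle and pericyte list was 9707, against 5386 to 6088 in the other lines. Lgals1, galectin-1, had 1822 CPM in WT2 and 1509 to 1538 CPM elsewhere. mt-Cytb, the mitochondrial cytochrome b, had 1920.3 CPM in WT2, below 2201 to 2252 CPM in the others, and mt-Nd1, a complex I subunit, had 2260.5 CPM in WT1 against 1751 to 1784 CPM. The flags of these 3 genes are given with TMM scaling only. The TMM factor of WT2 was the lowest, at 0.93, so the gaps of Lgals1 and mt-Cytb depend on the scaling.

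Cxcl3, a neutrophil-attracting chemokine, had 17.7 CPM in WT4 and at most 2.83 CPM in the others. Rn7s2, a signal recognition particle RNA, had 24.9 CPM in WT4 and at most 3.35 CPM elsewhere. Among pseudogenes and predicted genes, Rpl15-ps6 and Rpl15-ps2 had 35.2 and 28.3 CPM in WT2 and at most 0.130 and 0.0327 CPM elsewhere, Gm7292 had 0 in WT3 against 18.3 to 19.8 CPM, and Gm4864 had 0.0196 CPM in WT2 against 8.37 to 9.04 CPM.

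The gaps of Rxrb, with 39.1 CPM in WT4 against 38.4 to 38.5 CPM, and Fbxo42, with 57.0 CPM in WT1 against 58.1 to 58.2 CPM, lie within a narrow range, since both are among the 10 least variable genes. In WT3, Xist had 0.167 CPM against 899.7 to 925.7 CPM, and the Y-linked genes Ddx3y, Kdm5d, Eif2s3y and Uty had 103, 37.6, 30.6 and 35.0 CPM against at most 0.0168 CPM in any other line.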

How the results depend on the processing

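With total counts in place of TMM, WT3 was the lowest line for 10 in place of 26 ribosomal protein genes and WT4 for 18 in place of 2, and the order of their sums turned. The 10 highest genes held 5.26% of counts on average and 7.47% of the length-corrected level. Of the 50 genes highest by level, 31 were also among the 50 highest with no length correction. Of 12794 genes, 2736 had a 2-fold range and 954 a 4-fold range. With a mean of at least 5 CPM these were 1537 and 431, and with no filter on low counts 10636 and 2908. Leaving out 1 line gave 1732 to 2298 genes at 2-fold and 508 to 778 at 4-fold, the lowest of each without WT1, where 3 lines also give smaller ranges than 4. Genes detected in every line (10015 to 14157), the median SD of log2 CPM (0.19 to 0.23) and the 20 most variable genes (14 to 20 shared) stayed near the main values. Of further alternatives, 31 of 324 gene levels, 40 of 225 counts of 2-fold list members and 22 of 225 median ranges moved by more than their limits, and none of those moved with DESeq2 size factors. The limit of a gene level was its SD between lines, so all 31 moves were of the 10 least variable genes. Variable genes had limits too wide to be passed. Rpl15-ps6 fell from 8.83 to 0.0443 CPM without WT2 and stayed within its limit, so these counts do not show that gene levels were stable. No paired analysis was possible because a single group was described. Depth leaves levels under about 0.0588 CPM unresolved.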
